A study of Rattus norvegicus with 16 samples.

Results

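The cytosolic ribosomal protein genes are the 71 genes on a rat gene expression array whose listed symbol names a protein of the small or the large cytosolic ribosomal subunit. They were chosen by symbol alone, as Rps or Rpl followed by a number with at most 1 further letter, together with Rpsa, Rplp0, Rplp1 and Rplp2. Symbols of copies that end in the letter l were left out. The 71 genes, 26 of the small and 45 of the large subunit, were drawn from 16974 genes on the array. All 71 passed the filter on dim signals that left 10056 genes for testing. Of the ribosomal proteins that the rule did not find, 5 such genes and relatives are described with the other genes of translation.

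Total RNA was measured in 2 brain regions of male rats of the LOU/C/Jall strain, an inbred line, at 2 ages, with 1 array per RNA sample. The groups were old hippocampus (26 months), young hippocampus, old frontal cortex (26 months) and young frontal cortex, with 4 arrays in each. The labels give 5 months for the young rats and the series design text gives 3 months, and which is right is not known. All rats were anaesthetised with isoflurane before decapitation, and no other treatment or allele is named. Arrays are called here by the letter codes of their titles, AF to AI for old and AA, AB, Y and Z for young tissue. The labels do not say that a code is 1 animal, so p-values measure the spread between these arrays. Values are log2 signals, on which a difference of 1 is a doubling, and a difference has old over young, or hippocampus over frontal cortex, so that a positive one means more signal in old tissue or in hippocampus.

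Ribosomes are built from ribosomal RNA and about equal amounts of each ribosomal protein. The small subunit decodes mRNA and the large subunit joins amino acids. Vertebrate mRNAs for ribosomal proteins begin with a run of C and T bases, the terminal oligopyrimidine tract, through which the mTOR kinase and the RNA-binding protein Larp1 adjust their translation. Because their mRNAs are abundant and steady, Rplp0, Rpl13a, Rpl19 and Rps18 are often used as reference genes in quantitative PCR, also in brain.

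The letters around the transcription start show this shared feature. RefSeq (GRCr8) promoter sequences matched 61 of the 71 genes by symbol, and 10 had none. Each line below gives 30 bases of the gene's own strand, 15 before the RefSeq start and 15 from it on. Capitals mark an unbroken C or T run of at least 7 bases that touches the 5 bases on either side of the start. Rpl4, Rpl22, Rplp1 and Rpl19 are shown because their age differences are described further on, Rpl35 for its regional difference, Rplp0 as a common reference gene, and Rpsa and Rps6 as genes without such a run in this window.
Rpl4: taagTTCTTCCTTTTCCTgtgggagcagcc
Rpl22: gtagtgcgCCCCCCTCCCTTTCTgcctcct
Rplp1: gcaggcgcatgtgaTCCTTTCCTCagctgc
Rpl19: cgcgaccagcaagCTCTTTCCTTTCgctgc
Rpl35: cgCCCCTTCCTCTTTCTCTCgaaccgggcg
Rplp0: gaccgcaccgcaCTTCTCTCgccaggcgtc
Rpsa: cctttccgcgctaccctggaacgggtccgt
Rps6: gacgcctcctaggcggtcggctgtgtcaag
These windows lie at chr8:73566462-73566491 on the plus strand for Rpl4, chr5:168117946-168117975 on the plus strand for Rpl22 and chr8:71290858-71290887 on the minus strand for Rplp1. They lie at chr10:83519049-83519078 on the plus strand for Rpl19, chr3:43165907-43165936 on the minus strand for Rpl35 and chr12:46718376-46718405 on the minus strand for Rplp0. Those of Rpsa and Rps6 lie at chr8:128728864-128728893 on the plus strand and chr5:106420526-106420555 on the minus strand. Each window spans the last promoter bases and the first transcribed bases of its gene.

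A run of this kind was found at 42 of the 61 starts (68.9%), against 12.6% of all 33469 promoters in the RefSeq table. The longest run had a median of 10 bases at the 61 starts and 3 bases over all promoters. The 6 letters CTTTCC, which can fall inside such a run as in Rplp1 and Rpl19, stood on the gene's strand in 15 of 61 windows (24.6%) and in 1.24% of all windows of the same length. On the other strand they stood in 1 of 61 windows (1.64%), against 1.3% of all windows. A gene without a match has only other letters in this window, which depends on the start that RefSeq gives.

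Signals of these genes lay high on the array scale and varied little. The mean signal over all 16 arrays had a median of 14.36 over the 71 genes and 8.88 over the 10056 genes tested, and 68 of the 71 lay above the 90th percentile of gene means, 11.95. Probes differ in how strongly they bind, so signals of different genes do not give the order of their transcript amounts. Rpl41, a very short basic protein of the large subunit, had the highest mean signal (16.55). It was followed by Rplp0, the base of the ribosomal stalk (16.42), and Rps23, a protein of the decoding centre (16.04). The lowest were Rpl15 (8.25), Rps25 (11.09) and Rps26 (11.63). The SD between arrays of one group, pooled over the 4 groups, had a median of 0.113 over the 71 genes, against 0.165 over all genes tested, and was under 0.165 for 66 of the 71. Rpsa, the laminin receptor protein of the small subunit, varied most (0.235), followed by Rps24 (0.226) and Rps16 (0.185), both of the small subunit. The spread was not compared with that of other genes of like signal. Whether the brightest spots were near saturation was not examined here.

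**Figure D1:**
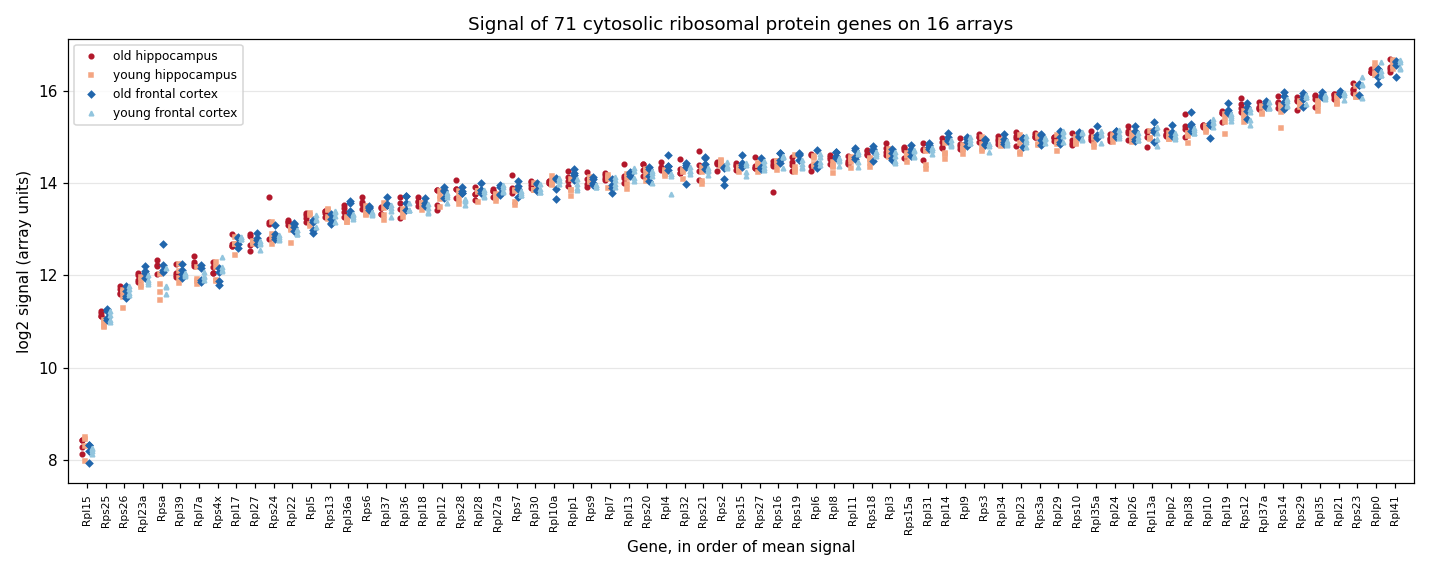
Log2 signal (vertical axis, array units) of each of the 71 genes, ordered by mean signal, with 1 point per array and a colour and symbol for each of the 4 groups. Points of the 4 groups lie on top of each other for nearly every gene, between 8.25 for the mean of Rpl15 and 16.55 for the mean of Rpl41.

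The common reference genes show the size of this spread. Rplp0 had signals of 16.4, 16.48, 16.4 and 16.41 in old hippocampus, against 16.35, 16.39, 16.52 and 16.61 in young hippocampus. In old frontal cortex it had 16.16, 16.31, 16.47 and 16.47, against 16.63, 16.35, 16.34 and 16.43 in young frontal cortex. The groups overlapped in both regions, with differences of -0.04 and -0.09. Rpl13a differed by -0.01 in hippocampus and 0.11 in frontal cortex. Rps18 differed by 0.20 in hippocampus and 0.03 in frontal cortex, and Rpl19 by 0.15 and 0.18. None of these 4 genes passed the test with age.

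With age in hippocampus, none of the 71 genes passed the test at an adjusted p under 0.05 (limma, Benjamini-Hochberg over 10056 genes, smallest adjusted p 0.472). Of all genes tested, 4 passed, or 0.0398%. At an unadjusted p under 0.05 stood 12 of the 71 (16.9%), all 12 with higher means in old tissue, against 6.77% of all genes in either direction. The difference was positive for 60 of the 71 genes (84.5%) and for 52.9% of all genes. Its median was 0.10 (1.073-fold) over the 71, against 0.01 over all genes. The 26 small subunit genes had a median of 0.12 and the 45 large subunit genes 0.09. The 95% interval lay within 0.5 on either side of 0 for 68 of the 71. Leaving out young array AA lowered the hippocampal median to 0.07, with 57 of 71 positive. In bulk tissue, a change in the number of cells of a type and a change in RNA per cell cannot be told apart.

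Rpl7a, a large subunit protein, had the smallest p of the 71 genes in hippocampus. Its signals were 12.28, 12.25, 12.21 and 12.41 in old hippocampus, against 11.81, 12.19, 11.92 and 11.88 in young hippocampus. The groups did not overlap, though young array AB came close to the lowest old array. The difference was 0.34 (SE 0.0993, adjusted p = 0.472 by limma), and in frontal cortex it was 0.06.

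Rpsa had the largest difference in hippocampus. It had 12.34, 12.23, 12.21 and 12.02 in old hippocampus, against 11.46, 12.04, 11.64 and 11.82 in young hippocampus. Old array AI lay below young array AB, so the groups overlapped, and the difference of 0.46 (SE 0.154) did not pass the test (limma adjusted p = 0.604). In frontal cortex it had 12.22, 12.69, 12.08 and 12.11 in old tissue, against 11.75, 11.59, 11.76 and 12.17 in young tissue. Young array Z lay above 2 of the old arrays there, and the difference was 0.45 (SE 0.154, limma adjusted p = 0.114).

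In 5 genes (7.04%) every old hippocampus array lay above every young one, against 2.68% of all genes, and in 0 of the 71 every old array lay below, against 1.88%. Besides Rpl7a these were Rpl22, Rpl4, Rps18 and Rps25. Rpl22, a large subunit protein that mice can lack because the related Rpl22l1 stands in, had 13.21, 13.09, 13.15 and 13.16 in old hippocampus, against 12.7, 12.98, 13.04 and 13 in young hippocampus. Young array AA was the lowest, the groups did not overlap, and the difference was 0.22 (SE 0.0798, limma adjusted p = 0.670). Rps25, of the small subunit and known for its part in initiation at viral internal entry sites, had 11.22, 11.19, 11.12 and 11.12 in old hippocampus, against 10.88, 10.98, 10.9 and 11.03 in young hippocampus. The difference was 0.22 (SE 0.0792, limma adjusted p = 0.670).

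Rps18, at the head of the small subunit, had 14.72, 14.63, 14.69 and 14.61 in old hippocampus, against 14.34, 14.52, 14.43 and 14.54 in young hippocampus. These groups did not overlap, and the difference was 0.20 (SE 0.0801, limma adjusted p = 0.675). Rps12 and Rps14, both of the small subunit, had differences of 0.24 (SE 0.0992) and 0.23 (SE 0.109) with overlapping groups. Rps24 had a difference of 0.30 (SE 0.149), with old array AG at 13.69 and the other old hippocampus arrays between 12.78 and 13.15. On the other side stood Rps16 at -0.14 (SE 0.126), where old array AH had 13.81 and the other old arrays 14.37 to 14.49. Rpl41, Rps2, Rplp0 and Rps9 followed at -0.06, -0.05, -0.04 and -0.02. None of these passed the test.

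With age in frontal cortex again none of the 71 genes passed (limma, smallest adjusted p 0.0893), against 97 of all genes (0.965%). At an unadjusted p under 0.05 stood 8 of the 71 (11.3%), 7 with higher and 1 with lower means in old tissue, against 22.2% of all genes in either direction. That share is below the background of the region. The difference was positive for 53 of 71 genes (74.6%) and for 50.2% of all genes. Its median was 0.06 (1.044-fold), against 0.00 over all genes. The small subunit genes had a median of 0.06 and the large subunit genes 0.07. Leaving out old array AH lowered the median to 0.03, with 48 of 71 positive.

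**Figure D2:**
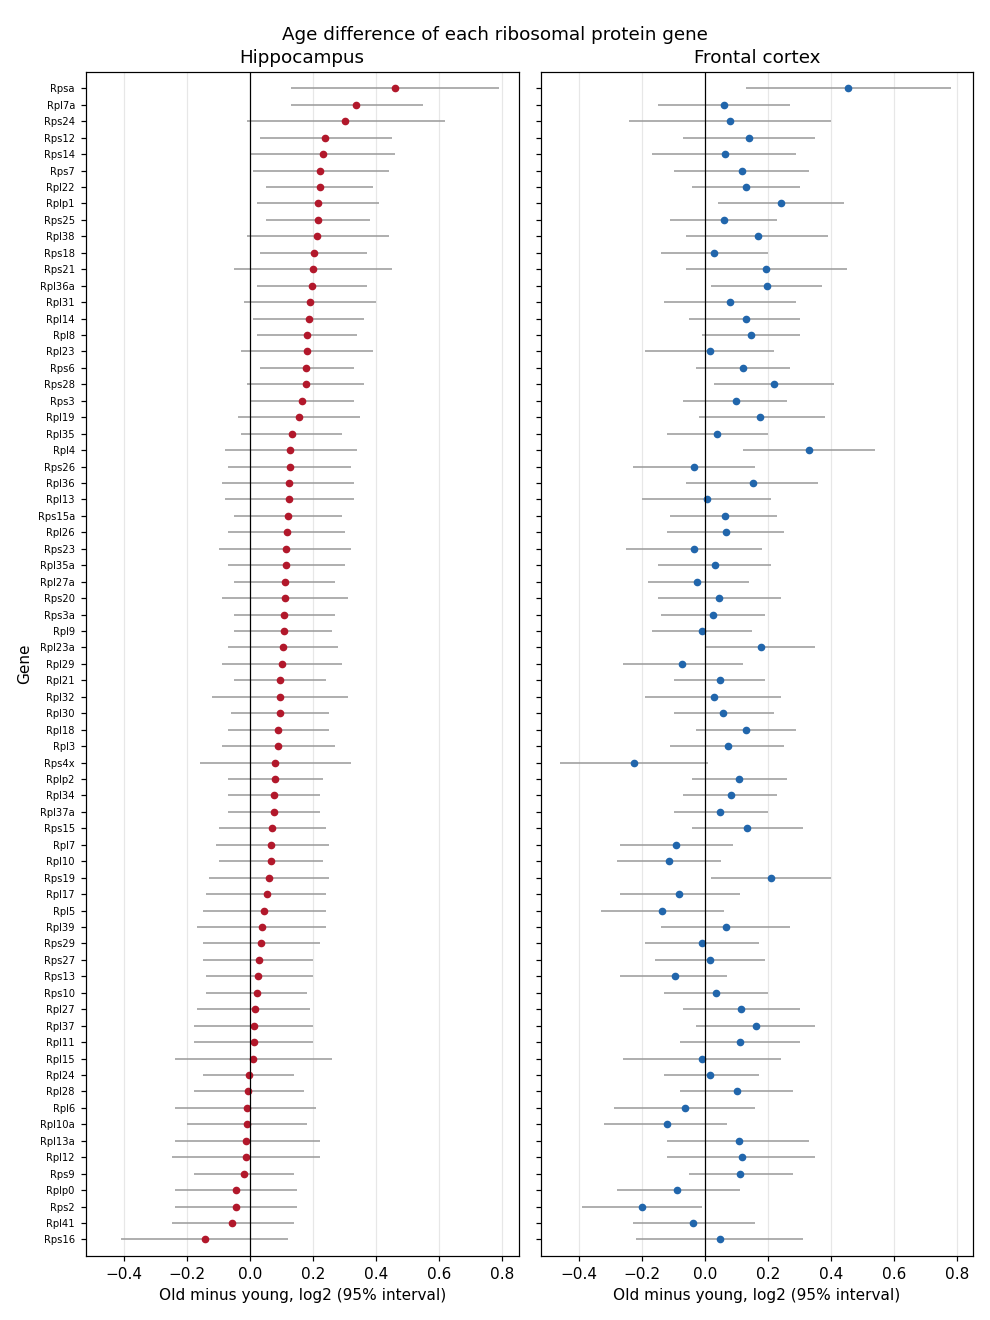
Old minus young difference in log2 (horizontal axis) of each of the 71 genes (rows, in the same order in both panels), in hippocampus and frontal cortex, with 95% intervals as lines and a vertical line at 0. In hippocampus 60 points and in frontal cortex 53 points lie right of 0, and no gene passed the test in either panel.

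Rpl4, a large subunit protein whose loop lines the exit tunnel, had the smallest p of the 71 genes in frontal cortex. Its signals were 14.37, 14.38, 14.6 and 14.29 in old frontal cortex, against 14.19, 13.76, 14.16 and 14.2 in young frontal cortex. The groups did not overlap, and young array AB lay far below the other young arrays. The difference was 0.33 (SE 0.0985, limma adjusted p = 0.0893). In hippocampus Rpl4 had 14.32, 14.36, 14.45 and 14.29 in old tissue, against 14.28, 14.16, 14.25 and 14.2 in young tissue, with the nearest arrays, old AI and young AA, almost level. At the brightest spot of each gene, Rpl4 was the 1 gene of the 71 with all old arrays above all young arrays in both regions. How many of all genes did so in both regions was not counted, so this cannot be read as unusual. The other Rpl4 spot, almost as bright (means of 14.2 and 14.27), had 13.83 on old hippocampus array AH, below all 4 young hippocampus arrays, and differences of 0.04 in hippocampus and 0.18 in frontal cortex. At its brightest spot, Rpl4 passed in frontal cortex when old frontal cortex array AI was left out (0.37, limma adjusted p = 0.0475). In that fit 739 of all genes passed, against 97 with all arrays.

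Every old array lay above every young one in 7 of the 71 genes (9.86%) in frontal cortex, against 6.79% of all genes. In 0 of the 71 every old array lay below, against 6.01% of all genes. The 7 were Rpl4, Rpl19, Rps6, Rps19 and Rps28, and Rpl8 and Rpl37, named here after their values were seen. Rps6, the small subunit protein that S6 kinase phosphorylates downstream of mTOR, had 13.45, 13.5, 13.48 and 13.41 in old frontal cortex, against 13.31, 13.35, 13.37 and 13.32 in young frontal cortex. The difference was 0.12 (SE 0.0709, limma adjusted p = 0.331), and 0.18 in hippocampus, where the groups overlapped. Rps19, the small subunit protein most often mutated in Diamond-Blackfan anaemia, had 14.6, 14.63, 14.66 and 14.51 in old frontal cortex, against 14.5, 14.33, 14.41 and 14.34 in young frontal cortex. The nearest arrays, old AI and young AA, were almost level, and the difference was 0.21 (SE 0.0896, limma adjusted p = 0.186).

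Rps28, a short protein of the small subunit, had 13.82, 13.92, 13.78 and 13.79 in old frontal cortex, against 13.53, 13.63, 13.66 and 13.62 in young frontal cortex. No array of one group came near the other, and the difference was 0.22 (SE 0.0888, limma adjusted p = 0.168). Rplp1, a stalk protein that helps recruit elongation factors, had 14.18, 14.31, 14.22 and 14.07 in old frontal cortex, against 13.86, 13.98, 13.89 and 14.09 in young frontal cortex. The groups overlapped through young array Z and old array AI, and the difference was 0.24 (SE 0.0939, limma adjusted p = 0.156). Its stalk partner Rplp2 had a difference of 0.11 (SE 0.071).

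Differences below 0 in frontal cortex were led by Rps4x, the X-linked small subunit protein. It had 11.8, 11.88, 12.07 and 12.15 in old frontal cortex, against 12.4, 12.19, 12.11 and 12.1 in young frontal cortex. The groups overlapped, and the difference was -0.23 (SE 0.111, limma adjusted p = 0.244). Rps2, at the mRNA entry of the small subunit, had 13.95, 14.1, 14.32 and 14.36 in old frontal cortex, against 14.38, 14.36, 14.32 and 14.46 in young frontal cortex. Old array AF was the lowest, and the difference was -0.20 (SE 0.091, limma adjusted p = 0.212). Rpl5, which with Rpl11 carries 5S ribosomal RNA and can bind Mdm2, had -0.14 (SE 0.0929), while Rpl11 had 0.11 (SE 0.0904). Rpl10a and Rpl10 had -0.12 and -0.11.

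The test of the difference between the regional age effects gave none of the 71 genes and none of all genes, 0.0% (limma, smallest adjusted p among the 71 0.999). At an unadjusted p under 0.05 it gave 0 of the 71 and 2.65% of all genes. Age effects of the 71 genes were thus not shown to differ between the regions. The difference was positive in both regions for 47 genes and negative in both for 5, and the shares of all genes that did so were not counted. Rps3 of the mRNA entry channel was at 0.17 in hippocampus and 0.10 in frontal cortex, Rpl3 of the peptidyl transferase centre at 0.09 and 0.07, Rpl38 at 0.21 and 0.17, and Rpl32 at 0.10 and 0.03. These 4 did not pass the test in either region.

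Array by array, the average deviation of the 71 genes from their own means over all 16 arrays was 0.09, 0.04, 0.03 and -0.01 in old hippocampus, against -0.15, -0.06, -0.04 and -0.01 in young hippocampus. It was 0.02, 0.01, 0.11 and 0.04 in old frontal cortex, against 0.02, -0.04, -0.01 and -0.04 in young frontal cortex. Young hippocampus array AA was the lowest, with 9 of 71 genes above their own mean, and old frontal cortex array AH the highest, with 60 of 71. In hippocampus old AI and young Z were almost level by this average. By the number of genes above their own mean the ages overlapped there, with 31 on old AI and 36 on young Z, and they overlapped in frontal cortex by the average as well. The SD of this average between arrays of a group was 0.0434. Genes measured on the same array share its RNA sample and labelling, so 71 genes leaning the same way are not 71 separate observations.

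**Figure D3:**
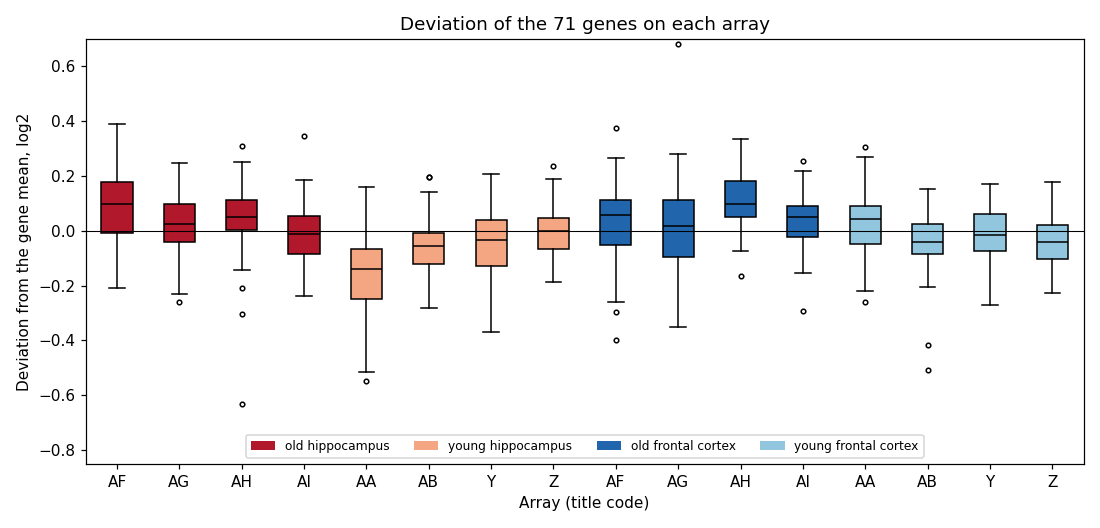
Deviation of each of the 71 genes from its own mean, in log2 (vertical axis), on each of the 16 arrays (horizontal axis, by title code), grouped as old and young hippocampus and old and young frontal cortex. The distribution on young hippocampus array AA lies lowest (mean -0.15) and that on old frontal cortex array AH highest (mean 0.11).

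Other features of the arrays lay apart by age or by array. The 11 microglial markers averaged 0.15, 0.03, 0.32 and 0.32 in old hippocampus, against -0.34, -0.38, -0.03 and -0.15 in young hippocampus, as deviations in log2. They averaged -0.02, 0.12, 0.21 and 0.24 in old frontal cortex, against -0.07, -0.12, -0.11 and -0.19 in young frontal cortex. Old and young groups did not overlap in either region, 11 of 11 markers in hippocampus and 10 of 11 in frontal cortex had a positive difference, and none of the 11 passed the test in either region. The 10 myelin markers ranged from -0.11 to 0.63 in old frontal cortex, against -0.79 to -0.05 in young frontal cortex. The 13 meningeal and mural markers ranged from -0.75 to 0.10 in old frontal cortex, against -0.11 to 1.16 in young frontal cortex, where arrays Y and Z were highest. Old and young arrays overlapped in both of these lists. The 9 neuronal markers averaged -0.07, 0.04, 0.03 and -0.28 in old hippocampus, against 0.14, 0.03, 0.02 and 0.05 in young hippocampus. They averaged -0.10, -0.04, -0.11 and 0.00 in old frontal cortex, against 0.12, 0.13, -0.01 and 0.04 in young frontal cortex. The ages overlapped in both regions, 1 of 9 neuronal markers had a positive difference in hippocampus and 3 of 9 in frontal cortex, and none of the 9 passed the test with age. The part of these lists in the ribosomal protein values was not tested.

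The 12 choroid plexus markers averaged 2.17 and 3.41 on old hippocampus arrays AH and AI and 3.07 and 2.67 on young hippocampus arrays AB and Y, against 0.14 or less on the other 12 arrays. Without those 4 arrays the hippocampal median of the 71 genes was 0.12, with 62 of 71 positive. The 5 erythrocyte markers were highest on the 2 old arrays with the code AF (1.37 in hippocampus, 1.68 in frontal cortex), without which the medians were 0.09 in hippocampus and 0.05 in frontal cortex. Striatal markers ranged from 0.48 to 2.26 in old frontal cortex, against -0.27 to 1.52 in young frontal cortex, and from -0.88 to -0.69 in old hippocampus, against -0.94 to -0.67 in young hippocampus. The labelled regions matched their markers otherwise: 6 of 7 hippocampal markers passed the test as higher and 4 of 6 neocortical markers as lower in hippocampus than in frontal cortex.

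Several spots of the same gene did not always give the same difference. The 71 genes had 221 spots, 63 of them had more than 1, and Rpl15 and Rps4x had 10 each. The results above take the spot with the highest mean signal. In hippocampus the spots differed in the sign of the age difference for 33 of the 63 genes, all were positive for 28 and all negative for 2. In frontal cortex they differed in sign for 20, and were all positive for 35 and all negative for 8. Of the 221 spots 6, from 3 genes, had means below the filter level of 6.486. Over the other 215 spots, a choice made after the data were seen, the sign differed for 32 of 63 genes in hippocampus and 19 of 63 in frontal cortex. None of the 221 spots passed the test in either region. The median difference over all 221 spots was 0.07 in hippocampus and 0.05 in frontal cortex, with 160 and 147 spots positive.

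Rpsa shows how far spots can part. In hippocampus its 3 spots, in order of mean signal, had differences of 0.46, 0.25 and -0.17, and in frontal cortex 0.45, 0.31 and -0.08. Rps23 had the widest range in hippocampus, 0.82, from -0.08 at the third brightest spot to 0.74 at the next. That dimmer spot had 11.77, 12.34, 11.46 and 11.69 in old hippocampus, against 10.23, 11.74, 11.09 and 11.26 in young hippocampus, with young array AA far below the rest. Rows with one symbol were not all repeats of 1 probe: the spots of Rps14 carry 2 accessions, and those of Rpl36a had mean signals from 5.31 to 13.34. Rpl36a is named here after its values were seen. Ribosomal protein genes have many processed copies with nearly the same sequence, so a spot may also bind transcripts of a copy, and single-gene values are uncertain to that extent.

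**Figure D4:**
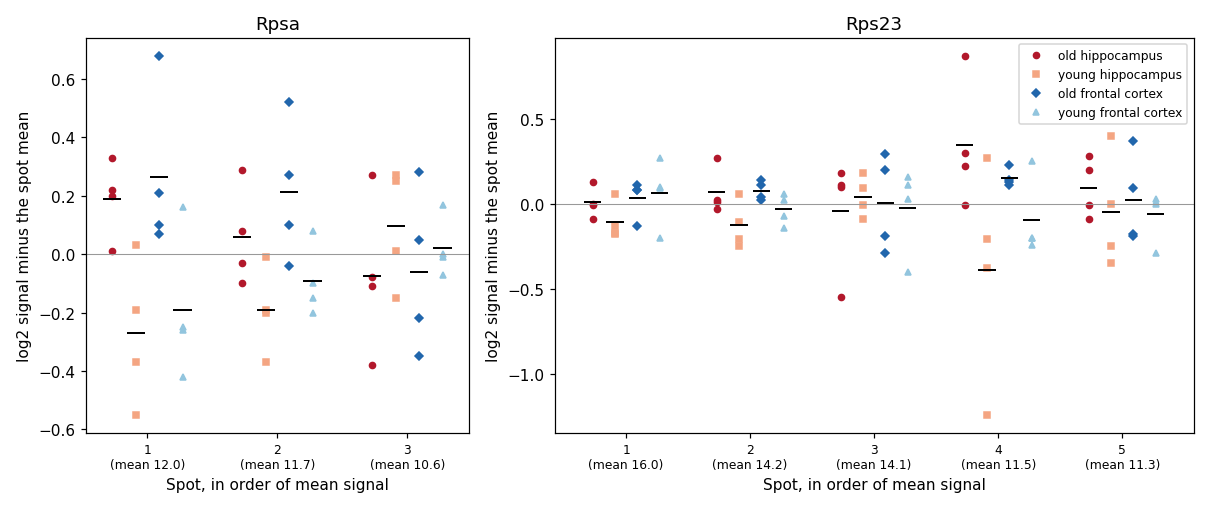
Log2 signal minus the spot's mean (vertical axis) on each array, for the spots of Rpsa (left) and Rps23 (right), ordered by mean signal (horizontal axis), with 1 point per array in the colour of its group and a black bar at each group mean. For Rpsa the means of the old groups lie above those of the young groups of the same region at the 2 brighter spots and below them at the dimmest.

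Between the regions the 71 genes were close. Over both ages none passed the test (limma, smallest adjusted p 0.0594), against 2897 of all genes (28.8%). At an unadjusted p under 0.05 stood 6 of the 71 (8.45%), 1 with a higher and 5 with a lower mean in hippocampus, against 38.9% of all genes. The difference was positive for 24 of the 71 (33.8%) and for 50.6% of all genes, with a median of -0.04 over the 71 and 0.00 over all genes. The median absolute difference was 0.08 over the 71 genes and 0.138 over all genes. The small subunit genes had a median of -0.03 and the large subunit genes -0.06. The 95% interval lay within 0.5 on either side of 0 for all 71 genes. Under a further quantile normalization over gene probes 7 of the 71 passed, all lower in hippocampus, among them Rpl14, Rpl31, Rpl35, Rps16 and Rps18. Leaving out old hippocampus array AF let 4 pass, with Rpl14 and Rpl35 among them. Of all genes, 2925 passed under quantile normalization and 3022 without that array.

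Within each age none of the 71 genes passed, and the median difference was below 0 at both ages (-0.042 in young and -0.017 in old rats). The difference was positive for 21 of the 71 genes and negative for 50 in young rats, and positive for 31 and negative for 40 in old rats. In young rats 0 of the 71 passed (smallest limma adjusted p 0.121), against 13.8% of all genes, and 5 (7.04%) stood at an unadjusted p under 0.05, all lower in hippocampus, against 25.1%. In old rats 0 of the 71 passed (smallest limma adjusted p 0.0944), against 18.7% of all genes, and 5 (7.04%) stood at an unadjusted p under 0.05, 4 higher and 1 lower, against 31.8%. Every young hippocampus array lay above every young frontal cortex array for 1 of the 71 genes, Rps9, against 11.5% of all genes. Every one lay below for 4 genes (5.63%), Rpl27a, Rpl35, Rpl9 and Rps18, against 12.7%. In old rats the counts were 0 genes above, against 8.95% of all genes, and 1 gene below, Rpl37, against 8.32%. Of these, Rpl27a, Rpl9 and Rpl37 were named after their values were seen.

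**Figure D5:**
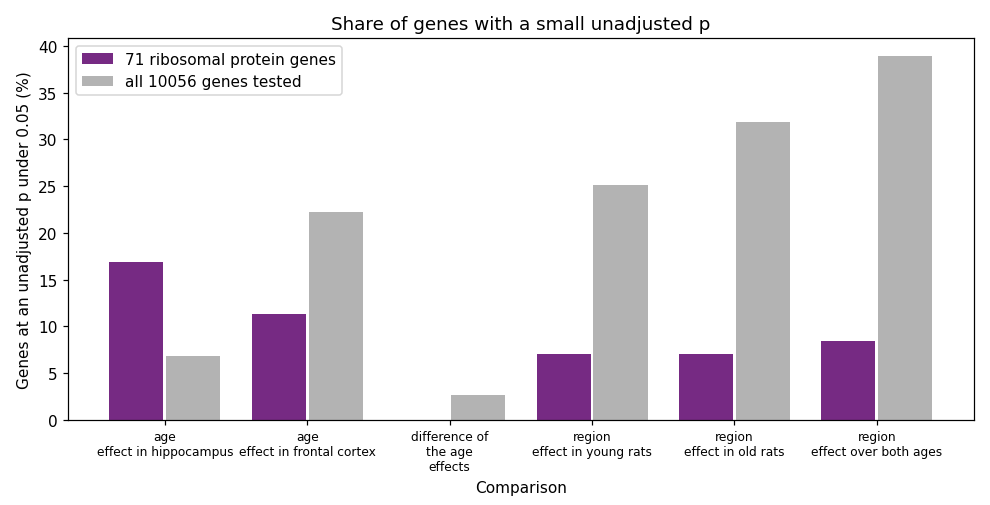
Percentage of genes at an unadjusted p under 0.05 (vertical axis, from 0) in each of the 6 comparisons, for the 71 genes and for all 10056 genes tested. The bar of the 71 genes is the taller one for age in hippocampus (16.9% against 6.77%) and the shorter one in the other 5 comparisons.

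Rpl14, a large subunit protein, came nearest to a call between regions. It had 14.98, 14.77, 14.89 and 14.79 in old hippocampus, against 14.93, 15.09, 14.92 and 14.99 in old frontal cortex. It had 14.52, 14.64, 14.66 and 14.86 in young hippocampus, against 14.84, 14.82, 14.81 and 14.94 in young frontal cortex. The regions overlapped at both ages, and the difference was -0.15 (SE 0.0582, limma adjusted p = 0.0594).

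Rpl35, beside the exit tunnel, had 15.57, 15.72, 15.67 and 15.78 in young hippocampus, against 15.92, 15.83, 15.89 and 15.86 in young frontal cortex. The regions did not overlap in young rats, but did in old rats, and the difference over both ages was -0.14 (SE 0.053, limma adjusted p = 0.0600). Rps16 had -0.20 (SE 0.0892), Rpl31, near the tunnel exit, -0.15 (SE 0.0704) and Rps14 -0.13 (SE 0.0771). On the positive side stood Rps24 at 0.17 (SE 0.105), Rps2 at 0.14 (SE 0.0643), Rpl7 at 0.12 (SE 0.0607), and Rpl7a and Rpl5 at 0.11 each. None of these passed the test.

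The other genes of translation were taken from lists of their own, chosen by name. Of 5 ribosomal proteins and relatives outside the symbol rule, none passed with age in either region. Fau, which encodes ribosomal protein S30 fused to a ubiquitin-like protein, was lower in hippocampus than in frontal cortex over both ages (-0.18, SE 0.0545, limma adjusted p = 0.0223). It was the 1 call among the 5 genes in that comparison (20%), against 28.8% of all genes. Rack1, a scaffold on the small subunit, had a difference of -0.42 (SE 0.17, limma adjusted p = 0.166) with age in frontal cortex.

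Of all genes tested, 0.0398% passed with age in hippocampus and 0.965% in frontal cortex, so few or no calls are the background for lists of this size. Of 37 initiation factors none passed in hippocampus, with a median of -0.03, and 1 (2.7%) passed in frontal cortex, with a median of -0.05. That gene was Eif2b1, a subunit of the exchange factor that recharges eIF2 with GTP, which was lower in old frontal cortex (means of 6.97 in old and 7.53 in young tissue, difference -0.56, SE 0.126, limma adjusted p = 0.0483). Of 13 elongation and termination factors none passed with age, with medians of 0.07 in hippocampus and -0.01 in frontal cortex. Of 45 ribosome biogenesis factors none passed with age, with medians of 0.03 and 0.04. Of 68 mitochondrial ribosomal proteins, which belong to the separate ribosome of the mitochondrion, none passed with age, and their medians were 0.01 and 0.02.

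The mTOR list of 27 genes had no call with age either, with medians of -0.001 in hippocampus and 0.03 in frontal cortex. Rheb, the GTPase that activates mTOR complex 1, had a difference of -0.35 in frontal cortex (SE 0.0803, limma adjusted p = 0.0530). Mtor itself had -0.32 there (SE 0.0939, limma adjusted p = 0.0839) and Rps6kb2, an S6 kinase, 0.51 (SE 0.123, limma adjusted p = 0.0601).

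Between regions over both ages these lists held calls, to be read against the 28.8% of all genes that passed. The share called was 24.3% of initiation factors, 7.69% of elongation and termination factors, 33.3% of the mTOR list and 7.35% of mitochondrial ribosomal proteins, and 8 of 45 biogenesis factors were called. Of the 37 initiation factors 8 were higher and 1 was lower in hippocampus, among them Eif1b (0.34) and Eif3i (0.21) on the higher side and Eif3k (-0.15) on the lower. Of the 13 elongation and termination factors 1 was higher, Eef1a1 (0.22), which delivers aminoacyl-tRNA. Of the 45 biogenesis factors 7 were higher and 1 was lower, led by Fbl (0.37), the methyltransferase of ribosomal RNA, and Nhp2 (-0.33), a protein of the pseudouridylation complex. Of the 27 mTOR genes 3 were higher and 6 lower, with Myc at 0.65 and Sesn3 at -0.67. Of the 68 mitochondrial ribosomal proteins 3 were higher and 2 lower. Whether the share called differs between these lists and the 71 genes was not tested.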

How the data were processed

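The values are log2 signals of one-colour arrays as deposited by the authors, who per the labels read the Cy3 scans with Agilent Feature Extraction, of unstated version. The sources used here do not say how background and normalization were handled. Every column had the same median, 6.774, and values ran from 4.944 to 17.771. The upper quartile over all spots was read from the first column only (9.171). A table of 16 raw signal columns could not be matched to samples and was not used.

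Of 62976 spots, 45904 had a listed gene and 17072 had none. The accessions of 39795 matched RefSeq (GRCr8) and took its symbol, which may equal the array's, and 6109 without a match kept the array's symbol. Members were found by the array's symbol. Under updated symbols there are 70, since the accession of Rpl37 is now listed as Rpl37l1. Each array was shifted to a common 75th percentile over the spots with a listed gene (9.42 to 9.444 before the shift). A gene was represented by its spot of highest mean signal and kept when its highest group mean passed the 40th percentile of spot means, 6.486.

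limma 3.58.1 in R 4.3.3 fitted the 4 group means over all 16 arrays with 12 residual degrees of freedom and 4.07 from the prior. Two-sided p-values of 10056 genes were adjusted (Benjamini-Hochberg) for each of 6 comparisons, and a gene passed at an adjusted p under 0.05. Tables were made with Python 3.11.15 and pandas 2.3.3. On simulated data of 10056 genes, the hippocampal age comparison called 62% of 100 genes changed by 0.5 log2 and 95% of 100 changed by 1, with 8 false of 165 calls. The frontal cortex comparison called 48% and 93%, with 3 false of 144. Both comparisons used 1 draw of independent noise, so the gap between 62% and 48% is not a trait of the regions. In the measured data only 4 and 97 genes passed, which makes the adjustment stricter, so these shares do not carry over to the real tests. The number of arrays limits the precision.

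Named genes were the 5 most positive and 5 most negative differences of the 2 age comparisons and of region over both ages, a set list of well-known members, and the 3 highest and lowest signals and 3 largest SDs. The members, the gene lists, this rule and the alternatives were chosen with earlier results of these data known. Alternatives changed the shift, the filter, the choice of spot, the symbols, the variance settings, array weights and the arrays fitted.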

Additional observations from a re-analysis of the deposited data

Results flagged for a closer look

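In 6 of 160 groups of 4 arrays examined for the named genes, 1 array stood apart from the other 3 by a share of the group's whole range above Dixon's critical value at 95%. Chance alone sets about 1 in 20 such groups apart. Rpl10 had 14.97 on old frontal cortex array AG, with the other 3 at 15.25 to 15.3, a gap of 0.851 of the range. Rps23 had 15.91 on the same array, with the others at 16.12 to 16.15 (0.855). Rpl32 had 13.98 on old frontal cortex array AI, with the others at 14.35 to 14.43 (0.832). Rpl13a had 15.13 on young hippocampus array AA, with the others at 14.96 to 14.98 (0.898). Rps16 had 14.33 on young frontal cortex array Y, with the others at 14.57 to 14.59 (0.909). Rpl4 had 13.76 on young frontal cortex array AB, with the others at 14.16 to 14.2 (0.9). That array enters the Rpl4 age difference in frontal cortex given in the report.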

How the results depend on the processing

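Of 31 alternatives, none moved the median difference of the 71 genes by more than the spread between arrays, 0.0434, in any of the 6 comparisons (180 of 180 values). This does not show stable signs, since the regional medians (-0.042 in young rats, -0.017 in old rats, -0.04 over both ages) were smaller than that spread. In old rats the median turned to 0.011 without old frontal cortex array AH and to 0.02 without the choroid-rich arrays. Of 180 counts of genes that passed, 166 did not change. Of 2760 values of named genes, 2653 kept their sign and side of the threshold, 89 turned sign and 18 passed the threshold. Among the larger hippocampal differences that turned sign were Rps14 (0.231), Rpl38 (0.212) and Rps16 (-0.143), and the cause was not tested. No alternative gave a call with age in hippocampus or in the difference of the age effects.

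Leaving out each array in turn gave hippocampal age medians of 0.074 to 0.119 and frontal cortex medians of 0.032 to 0.085, the lowest without young AA and without old AH, and 0 to 1 calls in frontal cortex (Rpl4, without old AI). Without old AI 739 of all genes passed in frontal cortex. The difference of the age effects had medians of 0.019 to 0.076. Medians between regions ran from -0.059 to -0.015 in young rats, from -0.041 to 0.011 in old rats and from -0.06 to -0.03 over both ages, with 0, 0 to 1 and 0 to 4 calls. The calls in old rats were Rpl7a without old frontal cortex array AF and Rps24 without old hippocampus array AF. Over both ages they were Rpl14, Rpl35, Rpl9 and Rps10 without old hippocampus array AF, and Rpl14 without young hippocampus array Z. Of all genes, 1568 and 1949 passed in these fits in old rats, and 3022 and 2564 over both ages, in the same order.

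Between regions in young rats, quantile normalization gave 2 calls (Rpl9, Rps18) and array weights 1 (Rpl27a). Of all genes, 1409 and 2306 passed in these fits. In old rats array weights gave 1 (Rps24), with 1587 of all genes. Over both ages quantile normalization gave 7 (with Rpl9 and Rps10 besides those in the report), the stricter filter 2 and the variance trend 2 (Rpl14 and Rpl35 each), the mean of all spots 1 (Rpl7), array weights 3 (Rpl35, Rpl9, Rps24) and leaving out both old arrays AF 2 (Rpl14, Rpl35). In the same order, 2925, 2124, 2907, 2982, 3192 and 2922 of all genes passed over both ages in these fits, and the member calls are to be read against them. Leaving out both old arrays AF, the 4 choroid-rich arrays or young frontal cortex arrays Y and Z was chosen after the data were seen.

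Age differences in hippocampus that turned sign were, under the mean of all spots, Rpl11 -0.020, Rpl13a 0.033, Rpl15 -0.013 and Rplp0 0.002. At the second brightest spot they were Rpl11 -0.053, Rpl13a 0.078, Rpl3 -0.036, Rpl38 -0.026, Rplp0 0.074, Rps14 -0.100 and Rps26 -0.012. Quantile normalization gave Rpl38 -0.026 and Rps9 0.019, and array weights Rpl11 -0.017, Rpl15 -0.006 and Rpl5 -0.029. The brightest spot was picked anew after each normalization. The Rpl38 value under quantile normalization equals the one at its second brightest spot. Without the choroid-rich arrays Rpl41 had 0.015, Rpl5 -0.011, Rps16 0.008 and Rps9 0.059, and without both old arrays AF Rpl15 had -0.025 and Rps2 0.000. In frontal cortex the mean of all spots gave Rps16 -0.085 and Rps23 0.088, and the second brightest spot Rpl3 -0.002, Rps16 -0.126 and Rps23 0.111. The median shift gave Rpl15 0.003, and array weights Rpl15 0.035 and Rpl32 -0.008. Without young arrays Y and Z Rpl15 had 0.013 and Rps16 -0.020, and without both old arrays AF Rpl41 had 0.041 and Rps26 0.001.

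Between regions over both ages the mean of all spots gave Rpl4 -0.028 and Rplp2 0.004. The second brightest spot gave Rpl10 0.025, Rpl3 -0.038, Rpl4 -0.103 and Rplp2 0.041. Array weights gave Rpl32 0.005, Rpl41 0.030 and Rpsa 0.020. Rpl41 had 0.005 as deposited and 0.001 with a median shift, and without the choroid-rich arrays Rpl41 had 0.041 and Rpl22 -0.003.

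Some signs turned when 1 array was left out. In hippocampus the ranges were -0.034 to 0.044 for Rpl11, -0.055 to 0.059 for Rpl13a, -0.101 to 0.073 for Rpl15, -0.004 to 0.093 for Rpl5, -0.084 to 0.002 for Rplp0, -0.216 to 0.012 for Rps16, -0.071 to 0.000 for Rps2 and -0.083 to 0.027 for Rps9. In frontal cortex they were -0.054 to 0.077 for Rpl15, -0.018 to 0.131 for Rpl32, -0.074 to 0.041 for Rpl41, -0.016 to 0.091 for Rps16, -0.012 to 0.100 for Rps18, -0.124 to 0.033 for Rps23 and -0.083 to 0.001 for Rps26. Over both ages between regions they were -0.06 to 0.016 for Rpl32, -0.04 to 0.019 for Rpl41 and -0.005 to 0.078 for Rpl4.

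Title codes are shared by the 2 regions. Over all genes, deviations of same-coded arrays from their group means correlated between -0.171 and 0.282. Over the ribosomal protein genes the range was -0.242 to 0.445. Erythrocyte markers averaged 1.37, -0.79, 0.18 and -0.10 in old hippocampus (AF to AI), against 1.68, -1.12, 0.21 and -0.075 in old frontal cortex. They averaged -0.47, -0.21, 0.22 and -0.88 in young hippocampus (AA, AB, Y, Z), against 0.003, -0.10, 0.24 and -0.17 in young frontal cortex. These values cannot tell whether same-coded arrays come from the same rat, and the codes were not taken as pairs. A replicate block by code gave 0 calls and unchanged medians in the difference of the age effects (0.047) and in the regional comparisons of young rats (-0.042), old rats (-0.017) and both ages (-0.04).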
